A study of Homo sapiens with 6 samples.

Results

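Antioxidant, glutathione and ferroptosis genes were examined in HGC-27 cells with and without knockdown of ACAT2. The set holds 35 genes chosen by symbol for their known role, out of 58735 genes in the deposited table. They are the transcription factor NRF2 and its repressor, haem and quinone enzymes, the enzymes that make, use and restore glutathione, the thioredoxin and peroxiredoxin systems, superoxide dismutases and catalase, and proteins that handle iron or suppress ferroptosis. HGC-27 is an established line of undifferentiated human gastric carcinoma, labelled here as wild-type stomach cancer cells. The 3 shACAT2 libraries came from cells carrying pSIH-H1-Puro-shACAT2, a vector that expresses a short hairpin RNA against ACAT2, and the 3 shNC libraries from cells carrying pSIH-H1-Puro-shNC, its control. All cells were exposed to their vector for 24 hours and then selected with puromycin for 7 days. The labels do not say which hairpin against ACAT2 was used, and the study names empty vectors as its negative controls. The libraries include no separately labelled second hairpin and no rescue of ACAT2. An effect of the construct itself therefore cannot be told apart from that of ACAT2. Nor is it stated that the libraries came from separate cultures, so the spread between them may be technical.

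Cells keep reactive oxygen species in check with enzymes that pass electrons from NADPH to peroxides, either through glutathione or through thioredoxin. NRF2, held back by KEAP1, switches on many of these genes. Ferroptosis is a form of cell death driven by iron and by the peroxidation of membrane lipids. GPX4 and AIFM2 suppress it by different routes, and ferritin, made of the FTH1 and FTL chains, lowers the free iron that feeds it. ACAT2 itself encodes the cytosolic acetoacetyl-CoA thiolase, whose product leads into the mevalonate pathway.

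Some of these genes carry sequence features that set how their mRNA is read. The mRNAs of FTH1, FTL, SLC40A1 and TFRC hold iron-responsive elements, hairpins bound by iron regulatory proteins, which block translation from the 5′ UTR and protect the mRNA from the 3′ UTR. They are shown because these 4 genes store, export or import iron and their levels are compared below. The capitals mark the loop, CAGTGN, and the search asked for a C, 5 bases, the loop, and 5 bases that pair with the first 5. The first 3 elements lie in the 5′ UTR and the last in the 3′ UTR, where TFRC has 4 of them.
FTH1, chr11:61967573-61967602, minus strand: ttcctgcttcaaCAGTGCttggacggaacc
FTL, chr19:48965335-48965364, plus strand: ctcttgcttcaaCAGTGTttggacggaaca
SLC40A1, chr2:189580660-189580689, minus strand: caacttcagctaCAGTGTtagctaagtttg
TFRC, chr3:196050978-196051007, minus strand: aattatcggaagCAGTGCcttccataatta
These were read from GENCODE 29 transcripts on GRCh38. The pattern occurs in 178 of 10776 genes tested with a protein-coding transcript, or 1.65%.

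Several peroxidases and thioredoxin reductases are selenoproteins, in which a TGA codon is read as selenocysteine, the residue at the active site. The codon, in capitals, is shown for the main peroxidase of ferroptosis and for the cytosolic thioredoxin reductase, at codons 73 and 498 of the transcripts read.
GPX4, chr19:1105391-1105420, plus strand: gtggcctcccagTGAggcaagaccgaagta
TXNRD1, chr12:104348401-104348430, plus strand: caggctggctgcTGAggttaagccccagtg
GPX1, GPX3 and TXNRD2 carry such a codon as well, and GPX8 is not annotated with one.

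NRF2 binds the antioxidant response element, whose core was searched as TGACNNNGC on both strands of 300-base promoters from RefSeq on GRCh38.p14. Of 40 promoter entries for 27 of the genes, 7 held the letters, or 17.5%, beside 13.3% of 35116 promoters of the same length. The genes were AIFM2, GCLM, GSTP1, KEAP1, MGST1 and TXNRD1. The sites of GCLM and MGST1, genes with lower values in shACAT2 cells, are shown with the match in capitals.
GCLM, chr1:93909446-93909475, plus strand: tggaagacaaTGACTAAGCagaaatcgtag
MGST1, chr12:16347135-16347164, plus strand: ggggacatcgTGACAAAGCaaattgtctgg
A match is a run of letters and no evidence of binding. GSR, TXN2, FTH1, HMOX1, GSS, PRDX6, PRDX1 and SOD1 had no promoter entry.

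The libraries held 14086416 to 16067486 fragments assigned to genes. Values are FPKM, fragments scaled for exon length and library size, as deposited. The targeted gene ACAT2 (ENSG00000120437, chr6:159760328-159779055) had 14.2, 11.7 and 12.7 FPKM in the shNC libraries, in the order of their numbers, and 6.19, 5.46 and 6.05 in the shACAT2 libraries, so its levels follow the labels. None of 6 epithelial and none of 6 gastric markers reached a mean of 1 FPKM over the 6 libraries, and GKN1 and TFF1 had no fragment, although the cells are labelled gastric. The summed fibroblast markers lay between 102 and 105 FPKM in shNC and between 176 and 196 in shACAT2 cells, and the mesenchymal markers between 253 and 298 and between 349 and 467. Of the 4 fibroblast markers, COL1A1, LUM and DCN were higher, while PDGFRA went from 2.46 ± 0.183 to 1.56 ± 0.185 FPKM (SD, n = 3 each), without overlap. Of the mesenchymal markers, VIM made up nearly all of the sum, with means of 263 FPKM in shNC and 406 in shACAT2 cells. FN1 and ZEB1 overlapped between the groups, and CDH2 had means of 0.0249 and 0.0269 FPKM. Among the epithelial markers CDH1 alone separated the groups, with means of 0.161 FPKM in shNC and 0.863 in shACAT2 cells, below the level tested. The part of these markers in the results was not tested. Library shACAT2-3 had 7477 genes with a fragment in it alone, against 416 to 657 in each of the others.

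Of the 35 genes, 33 were tested, namely those whose mean reached 1 FPKM in at least 1 group. GPX3 and SOD3 fell below this. AIFM2 passed through its shACAT2 mean alone, 1.26 FPKM against 0.889 in shNC, so the filter favoured a higher value for it. The test was limma on log2(FPKM + 1), a scale that understates the change of low genes, and adjusted over all 13832 genes tested. No gene of the set passed an adjusted p of 0.05, a threshold passed by 5.10% of all genes tested. At an unadjusted p below 0.05 there were 7 of the 33 genes, 21.2%, beside 23.5% of all genes. By limma-voom on the recovered fragments, 0 passed the adjusted threshold, beside 7.35% of all genes, and 8 the unadjusted threshold, beside 24.5%. None passed the threshold the study sets for differential expression, a log2 fold change beyond 1 in either direction at an unadjusted p below 0.05, which 1.50% of all genes did.

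The replicate number was also used as a block, an assumed pairing that the labels do not state. With it, 4 genes passed an adjusted p of 0.05, CAT, FTL, GCLC and PRDX4, all higher in shACAT2 cells. That is 12.1% of the 33, beside 12.5% of all genes, so the share lay near the background. The median log2 fold change was 0.20 over the 33 genes and 0.02 over all genes tested, and 24 of the 33 genes, 72.7%, were higher in shACAT2 cells, beside 52.3% of all genes. AIFM2, let in by its shACAT2 mean alone, is among the 24. In 9 genes, 27.3%, all 3 shACAT2 values lay above all 3 shNC values, beside 16.2% of all genes, and in 2 genes, 6.1%, they all lay below, beside 14.5%. With 3 libraries against 3, the smallest two-sided exact permutation p is 0.1. In bulk libraries, fewer cells of a type and less RNA per cell cannot be told apart.

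**Figure D1:**
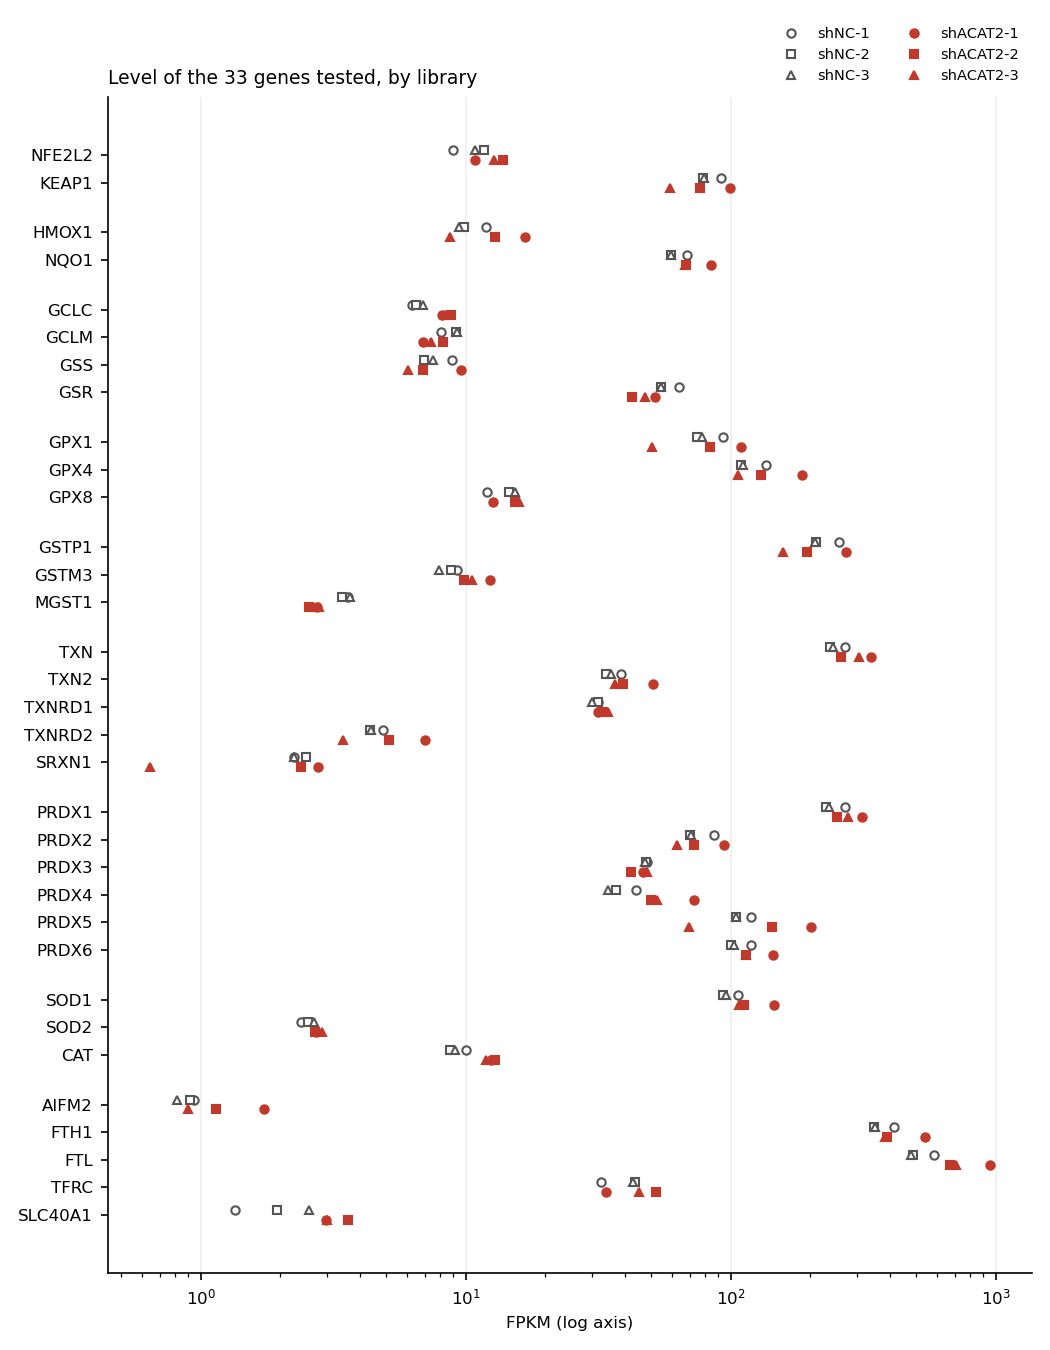
FPKM on a log axis for the 33 genes tested, grouped by role, with shNC libraries as open grey and shACAT2 libraries as filled red symbols, and the replicate number given by the symbol's shape. FTL, PRDX4, CAT and GCLC lie higher and GSR and MGST1 lower in all 3 shACAT2 libraries, while SRXN1 drops to 0.642 FPKM in shACAT2-3 alone.

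The higher median leaned on library shACAT2-1. It had the highest value of the 6 libraries for 21 of the 33 genes, 63.6%, beside 35.3% of all genes tested, and without it the median fell to 0.09. Library shACAT2-3 had the lowest value for 10 of the 33, 30.3%, beside 25.4% of all genes. These were GPX1, GPX4, GSS, GSTP1, HMOX1, KEAP1, PRDX2, PRDX5, SRXN1 and TXNRD2. These libraries, shACAT2-1 and shACAT2-3, departed from the shNC mean in opposite ways along the GC content of the transcript.

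Among the 2763 of all genes richest in GC, above 58.3%, the median deviation from the shNC mean was 0.30 in shACAT2-1, 0.00 in shACAT2-2 and −0.26 in shACAT2-3, on the log2(FPKM + 1) scale. Among the 2765 with the least GC, below 41.1%, the medians were −0.15, 0.13 and 0.13. The shNC libraries had slopes of their own, so the shNC mean mixes opposed slopes. From the least to the richest in GC, shNC-1 went from −0.15 to 0.12, shNC-2 from 0.08 to −0.06 and shNC-3 from 0.08 to −0.06. The 7 genes of the set in the GC-rich group had median deviations of 0.43, 0.03 and −0.48. Across the 33 genes, Spearman's rho of GC content with the deviation was 0.58 in shACAT2-1, −0.02 in shACAT2-2 and −0.51 in shACAT2-3, beside 0.35, −0.14 and −0.40 across 13823 genes. These points share their libraries and are a description.

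Because of this slope, a smooth curve of the deviation against GC was removed from every library, a correction chosen after the values were seen. It narrows the spread that follows GC and also takes out any difference between groups that follows GC. Then 5 of the 33 genes, 15.2%, passed an adjusted p of 0.05, beside 17.1% of 13823 genes. They were the same 4 genes as with the block and GSR, which was lower. With the correction and the block together, GCLM and MGST1, both lower, joined them, making 7 genes, 21.2%, beside 21.1% of all genes. The median log2 fold change of the set was 0.19 after the correction, beside −0.01 over all genes, with 23 of the 33 genes higher.

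**Figure D2:**
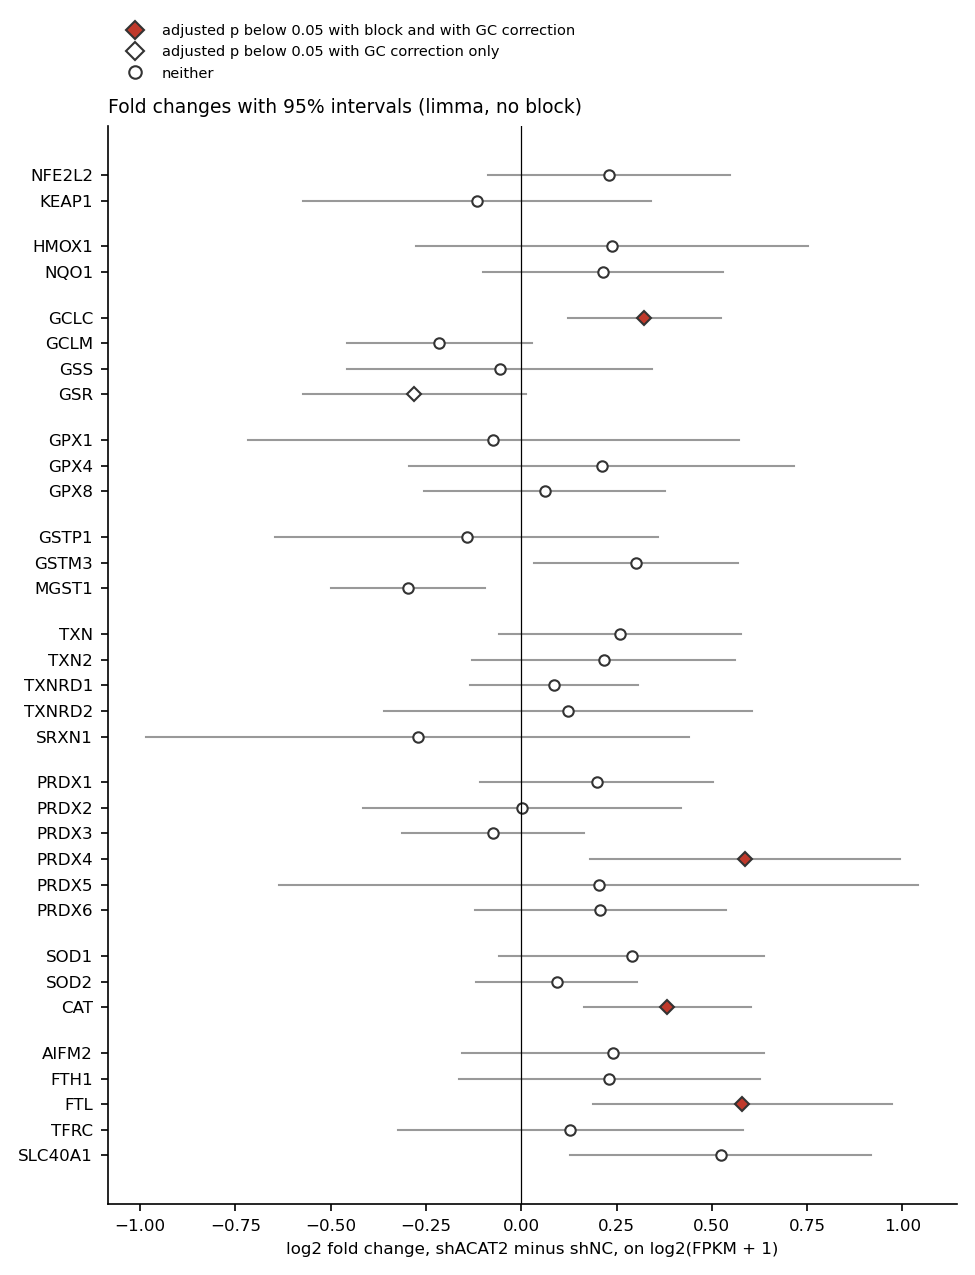
Log2 fold change of shACAT2 minus shNC cells for the 33 genes, with 95% intervals from limma without the block. Red diamonds mark CAT, FTL, GCLC and PRDX4, which passed with the block and with the GC correction, and the open diamond marks GSR, which passed with the correction alone; the widest interval is that of PRDX5, from −0.64 to 1.04.

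Of the regulators, NFE2L2, which encodes NRF2, had 8.98, 11.8 and 10.9 FPKM in the shNC libraries and 10.9, 13.8 and 12.8 in the shACAT2 libraries. The groups overlapped, and the log2 fold change was 0.23 (limma adjusted p = 0.351). KEAP1, which hands NRF2 to degradation, was the higher of the pair, with 92.1, 79.0 and 79.5 FPKM in shNC and 99.2, 77.0 and 59.3 in shACAT2 cells. Its values spread more within shACAT2 cells than between the groups, at a log2 fold change of −0.12 (limma adjusted p = 0.764) that turned to 0.07 without shACAT2-3. NFE2L2 shares 1054 exon bases on the same strand with AC019080.1, which had at most 0.246 FPKM, so the count of NFE2L2 is uncertain.

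The haem and quinone enzymes are common readouts of NRF2. NQO1, a quinone reductase, had 68.7, 59.8 and 59.4 FPKM in shNC and 84.7, 67.6 and 67.1 in shACAT2 cells. HMOX1, which breaks down haem and frees its iron, ran from 9.41 to 11.9 FPKM in shNC and from 8.76 to 16.7 in shACAT2 cells. The log2 fold changes were 0.21 and 0.24 (limma adjusted p = 0.380 and 0.560), and neither gene separated the groups.

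The enzymes of glutathione synthesis had log2 fold changes of both signs. GCLC (ENSG00000001084, chr6:53497341-53616970), the catalytic subunit of the enzyme that limits glutathione synthesis, had 6.27, 6.52 and 6.88 FPKM in shNC and 8.17, 8.83 and 8.35 in shACAT2 cells. Every shACAT2 value lay above every shNC value. The mean went from 6.56 ± 0.310 to 8.45 ± 0.340 FPKM (SD, n = 3 each), 1.29 times as high. On the log2 scale this was 0.32 with a standard error of 0.08 and a limma adjusted p of 0.0796. The limma adjusted p was 0.0451 with the replicate block and 0.0191 with the GC correction. GCLC shares 529 of its 8646 exon bases with AL033397.1 on the same strand, so its count is uncertain.

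GCLM, the modifier subunit of the same enzyme, went the other way. It had 8.09, 9.22 and 9.28 FPKM in shNC and 6.90, 8.21 and 7.39 in shACAT2 cells, where shACAT2-2 reached above shNC-1. The log2 fold change was −0.21 (limma adjusted p = 0.261, or 0.0461 with the GC correction and the block). Within a library, GCLC was thus 0.774, 0.707 and 0.742 times GCLM in shNC cells and 1.18, 1.08 and 1.13 times GCLM in shACAT2 cells, on the per-length scale of FPKM. The 2 sets of ratios did not overlap. The transcripts have 44.3% and 37.3% GC, and the part of GC content in this shift was not tested.

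GSS, which adds the last amino acid to glutathione, ran from 6.95 to 8.88 FPKM in shNC and from 6.07 to 9.63 in shACAT2 cells, with a log2 fold change of −0.06 (limma adjusted p = 0.873). GSR (ENSG00000104687), glutathione reductase, was the most abundant of the 4, with 64.0, 54.6 and 54.5 FPKM in shNC and 52.0, 42.4 and 47.7 in shACAT2 cells. All shACAT2 values were below all shNC values, as was the mean, 47.4 ± 4.80 against 57.7 ± 5.43 FPKM (SD, n = 3 each). The difference of −0.28 on the log2 scale had a standard error of 0.12 and a limma adjusted p of 0.231, which was 0.0672 with the block and 0.0492 with the GC correction.

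The glutathione peroxidases showed no difference past the test. GPX4, which reduces lipid peroxides in membranes and is the central brake on ferroptosis, had 136, 110 and 112 FPKM in shNC and 186, 130 and 107 in shACAT2 cells. The order of the shACAT2 libraries is that of the GC slope, and GPX4 has 65.2% GC. Its log2 fold change was 0.21 (95% interval −0.29 to 0.72, limma adjusted p = 0.602), and −0.01 without shACAT2-1. After the GC correction its groups did not overlap, at 0.18 (limma adjusted p = 0.151).

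GPX1, the cytosolic peroxidase, which the file lists as a polymorphic pseudogene, had 93.4, 74.5 and 77.8 FPKM in shNC and 110, 83.5 and 50.5 in shACAT2 cells. GPX8, a peroxidase of the endoplasmic reticulum, lay between 12.03 and 15.4 in shNC and between 12.7 and 15.9 in shACAT2 cells. Their log2 fold changes were −0.07 and 0.06 (limma adjusted p = 0.898 and 0.823). GPX3, the secreted peroxidase, had 4 to 17 fragments per library, or 0.0833 to 0.358 FPKM, and was not tested.

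Among the glutathione transferases, GSTP1 was the most abundant, at 258, 210 and 208 FPKM in shNC and 273, 194 and 158 in shACAT2 cells. Its values overlapped, at a log2 fold change of −0.14 (limma adjusted p = 0.732). MGST1, a membrane-bound transferase that also reduces lipid peroxides, was the lowest, with 3.59, 3.42 and 3.66 FPKM in shNC and 2.75, 2.57 and 2.80 in shACAT2 cells. The MGST1 groups lay well apart, 0.762 times the shNC mean, at a log2 fold change of −0.30 with a standard error of 0.09 (limma adjusted p = 0.0995, or 0.0551 with the block). With the GC correction the log2 fold change of MGST1 was −0.38, with a limma adjusted p of 0.119, or 0.0268 with the block added, and its groups overlapped. GSTM3 went from 8.68 ± 0.678 to 11.0 ± 1.28 FPKM (SD, n = 3 each) without overlap (log2 fold change 0.30, limma adjusted p = 0.169).

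In the thioredoxin system, TXN, the cytosolic thioredoxin, was the highest, with 271, 236 and 244 FPKM in shNC and 338, 260 and 305 in shACAT2 cells, a log2 fold change of 0.26 (limma adjusted p = 0.297). The mitochondrial thioredoxin TXN2 and the cytosolic reductase TXNRD1 had log2 fold changes of 0.22 and 0.09 (limma adjusted p = 0.421 and 0.630). All 3 shACAT2 values of TXNRD1 lay above the shNC values, but closely, 31.7 to 34.4 against 29.95 to 31.6 FPKM. TXNRD2, the mitochondrial reductase, ran from 3.44 in shACAT2-3 to 7.00 in shACAT2-1.

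SRXN1, which restores overoxidised peroxiredoxins, had 2.25, 2.49 and 2.26 FPKM in shNC and 2.78, 2.39 and 0.642 in shACAT2 cells. The last value rests on 26 fragments in shACAT2-3, against 93 to 114 in the other libraries. The log2 fold change was −0.27 (limma adjusted p = 0.638) and turned to 0.10 without that library. SRXN1 shares 2292 of its 2698 exon bases with AL121758.1 on the same strand, so its count is uncertain; AL121758.1 had at most 5 fragments.

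Most peroxiredoxins reduce peroxides with electrons from thioredoxin. PRDX4 (ENSG00000123131, chrX:23664262-23686399), the peroxiredoxin of the endoplasmic reticulum, had 43.8, 37.0 and 34.3 FPKM in shNC and 72.7, 50.2 and 53.0 in shACAT2 cells. The groups did not overlap, and shACAT2-1 was well above the rest. The mean went from 38.4 ± 4.90 to 58.6 ± 12.3 FPKM (SD, n = 3 each), 1.53 times as high, and the log2 fold change of 0.59 (standard error 0.17) was the highest of the set on the log2(FPKM + 1) scale, whereas the ratio of means was higher for SLC40A1, at 1.63. The limma adjusted p was 0.103, 0.0279 with the block and 0.0188 with the GC correction.

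PRDX1 was the most abundant peroxiredoxin, with 270, 229 and 234 FPKM in shNC and 313, 252 and 277 in shACAT2 cells, a log2 fold change of 0.20 (limma adjusted p = 0.404). PRDX5, found in several organelles, had 119, 105 and 105 FPKM in shNC and 201, 143 and 69.5 in shACAT2 cells. Its shACAT2 libraries thus lay on both sides of the shNC libraries, at a log2 fold change of 0.20 (limma adjusted p = 0.777). PRDX2, PRDX3 and PRDX6 had log2 fold changes of 0.00, −0.07 and 0.21 (limma adjusted p from 0.419 to 0.997), and that of PRDX2 changed sign with the scaling, to −0.05 with library sizes and −0.06 with upper quartiles.

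Of the dismutases and catalase, CAT (ENSG00000121691, chr11:34438925-34472062), which splits hydrogen peroxide in peroxisomes, had 10.0, 8.73 and 9.14 FPKM in shNC and 12.4, 12.9 and 11.9 in shACAT2 cells. The shACAT2 values were all higher and close to each other. The mean went from 9.30 ± 0.664 to 12.4 ± 0.493 FPKM (SD, n = 3 each), 1.34 times as high, and the log2 fold change of 0.38 had a standard error of 0.09 (limma adjusted p = 0.0646). With the block the limma adjusted p was 0.0437, and with the GC correction 0.0205.

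SOD1, the cytosolic dismutase, was the most abundant of this group, with 107, 93.5 and 96.3 FPKM in shNC and 146, 112 and 108 in shACAT2 cells. The lowest shACAT2 value lay just above the highest shNC value, and the log2 fold change was 0.29 (limma adjusted p = 0.288). After the GC correction the groups of SOD1 overlapped, as did those of SOD2. SOD2, the mitochondrial dismutase, had 2.39, 2.55 and 2.67 FPKM in shNC and 2.74, 2.70 and 2.88 in shACAT2 cells, a log2 fold change of 0.09 (limma adjusted p = 0.578). Those values belong to ENSG00000112096, of whose 16493 exon bases 0 overlap ACAT2. A further entry named SOD2, ENSG00000285441, shares 1141 exon bases with ACAT2 on the opposite strand and had at most 2 fragments per library. SOD3, the secreted dismutase, had 0 fragments in all libraries but shACAT2-3, where it had 2. For counting error only, a count of 0 would allow up to 0.0818 to 0.0940 FPKM by library, the upper end being that of shACAT2-3.

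The 4 iron proteins and the ferroptosis suppressor AIFM2 all had positive log2 fold changes, though AIFM2 passed the filter only through the group where it was higher. FTL (ENSG00000087086, chr19:48965301-48966878), the light chain of ferritin, had the highest level of all 33 genes. It had 584, 488 and 480 FPKM in shNC and 953, 675 and 712 in shACAT2 cells, from at least 6952 fragments per library. No shACAT2 value reached down to the shNC values, and shACAT2-1 stood highest. The mean went from 517 ± 57.7 to 780 ± 151 FPKM (SD, n = 3 each), 1.51 times as high. On the log2 scale it was higher by 0.58 with a standard error of 0.17 (limma adjusted p = 0.0976), and by 0.43 to 0.68 with each library left out. The limma adjusted p was 0.0290 with the block and 0.0119 with the GC correction.

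FTH1, the heavy chain, which oxidises iron for storage, had 412, 347 and 349 FPKM in shNC and 542, 390 and 383 in shACAT2 cells. Those groups overlapped, at a log2 fold change of 0.23 (limma adjusted p = 0.455). FTL was 1.42, 1.41 and 1.37 times FTH1 in the shNC libraries and 1.76, 1.73 and 1.86 times in the shACAT2 libraries, with no overlap. FTH1 shares 1267 of its 2030 exon bases with BEST1 on the opposite strand. BEST1 had at most 34 fragments per library, against at least 11417 for FTH1. These counts cannot show whether fragments in the shared bases were left out, so the level of FTH1 and its ratio to FTL are uncertain.

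SLC40A1, ferroportin, the only known exporter of iron, had 1.34, 1.94 and 2.57 FPKM in shNC and 2.97, 3.60 and 3.00 in shACAT2 cells. The groups did not overlap, but the shNC libraries differed widely, and the log2 fold change of 0.52 had a limma adjusted p of 0.123, or 0.0777 with the block. TFRC, the receptor that takes up iron-loaded transferrin, had 32.5, 43.6 and 42.9 FPKM in shNC and 34.0, 52.4 and 45.0 in shACAT2 cells, at a log2 fold change of 0.13 (limma adjusted p = 0.733). The ratio of TFRC to SLC40A1 was 24.2, 22.5 and 16.7 in the shNC libraries and 11.4, 14.6 and 14.98 in the shACAT2 libraries, so the groups were separated by a narrow gap. Of the 4 mRNAs with the iron-responsive elements shown above, FTL and SLC40A1 separated the groups and FTH1 and TFRC did not. AIFM2, which keeps ubiquinone reduced in membranes, had 0.942, 0.913 and 0.813 FPKM in shNC and 1.73, 1.148 and 0.895 in shACAT2 cells, a log2 fold change of 0.24 (limma adjusted p = 0.436).

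**Figure D3:**
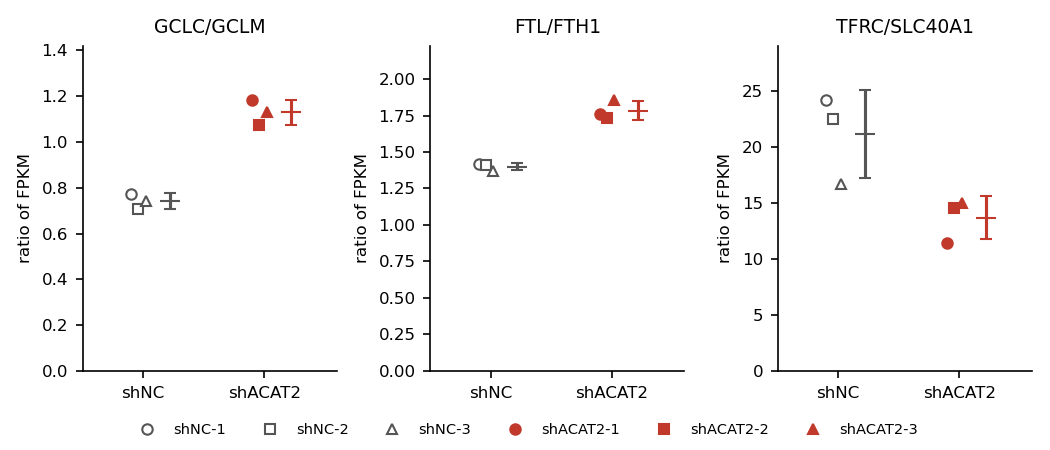
Ratio of 2 genes' FPKM within each library, for GCLC over GCLM, FTL over FTH1 and TFRC over SLC40A1, with all axes from 0 and bars for the mean ± SD of 3 libraries. In all 3 panels the shNC and shACAT2 points do not overlap, with means of 0.741 and 1.13, of 1.40 and 1.78, and of 21.1 and 13.7.

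The ratio of NFE2L2 to KEAP1 was computed with these 3 and did overlap, with 0.0975, 0.149 and 0.137 in shNC and 0.110, 0.180 and 0.216 in shACAT2 cells. All 4 ratios were chosen after the values were seen and carry no test. They do not depend on how a library is scaled, since both genes come from the same library.

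Of 146 further genes of the same pathways, 96 were tested. SAT1, which acetylates spermidine and has been tied to ferroptosis, was the only one past an adjusted p of 0.05 in limma. That is 1% of the 96, beside 5.10% of all genes tested. The values of SAT1 follow. It had 1.44, 1.43 and 1.25 FPKM in shNC and 2.37, 2.84 and 2.27 in shACAT2 cells, clear of each other, and rose by 0.55 on the log2 scale (limma adjusted p = 0.0404). With each library left out in turn, its limma adjusted p lay between 0.0519 and 0.181, and it was 0.0521 with upper-quartile scaling and 0.131 with no filter. The median log2 fold change of the 96 genes was 0.06, beside 0.02 over all genes tested.

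With the block, 14 of the 96 genes passed, 11 higher and 3 lower, 14.6% beside 12.5% of all genes. Named after their values were seen, the higher genes included NCOA4, the receptor that carries ferritin to its breakdown, with a mean of 34.2 ± 0.433 FPKM in shNC and 44.4 ± 1.75 in shACAT2 cells (SD, n = 3 each; log2 fold change 0.37, limma adjusted p = 0.0368 with the block). ACSL4, which loads membranes with polyunsaturated fatty acids, BLVRA, which reduces biliverdin, and the selenoprotein SELENOS were called higher with the block as well. Their log2 fold changes were 0.32 to 0.51. The groups of BLVRA and SELENOS did not overlap. Those of ACSL4 did, with 4.86, 6.70 and 6.19 FPKM in shNC and 5.92, 8.74 and 8.35 in shACAT2 cells. ACSL4 did not pass with the GC correction alone (limma adjusted p = 0.0560). SELENON, SESN2 and STEAP3, an endosomal iron reductase, were lower, with log2 fold changes of −0.39, −0.35 and −0.40.

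By list, with the block, the further genes that passed were 1 of 7 for NRF2 control, 3 of 13 for NRF2 target enzymes, 0 of 11 for glutathione synthesis and turnover, and 1 of 13 for glutathione peroxidases, transferases and glutaredoxins. They were 4 of 20 for the thioredoxin system, 0 of 3 for dismutases and oxidant sources, 3 of 17 for ferroptosis lipid and quinone enzymes, and 2 of 13 for iron uptake, storage and export. In the 2 lists without a call with the block, limma with an unadjusted p and no block gave 2 and 0 genes. With the GC correction, 2 of the 11 genes of glutathione synthesis and turnover passed, both lower. That is 18.2%, beside 17.1% of all genes. Over all genes tested, 12.5% passed with the block and 23.5% had an unadjusted limma p below 0.05. The 3 NRF2 target enzymes that passed with the block were all higher. Of the 13 tested in that list, 8 were higher and 5 lower at any size, with a median log2 fold change of 0.06. Among the 4 that passed in the thioredoxin list, 2 were higher and 2 lower. SLC7A11, the cystine importer that feeds glutathione synthesis, had a log2 fold change of −0.25 (limma adjusted p = 0.573).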

How the data were processed

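RNA of HGC-27 cells, 3 shACAT2 and 3 shNC libraries grouped by their labels, was measured. The authors deposited FPKM values for 58735 genes. HISAT2 2.0.5, featureCounts 1.5.0-p3 and DESeq2 1.20.0 and the build hg38 are listed in the submitters' processing notes, and the strand setting is not given in the sources used here. All 36 rows of the set (SOD2 has 2) have the exon lengths of GENCODE 29. Multiplied by gene length and divided by what 1 fragment is worth in each library, 100% of the values were whole fragments (tolerance 0.01). The members and lists were chosen with earlier results of these data known, as were the named genes: all members by role, values per library for those past the test in any fit, for SOD2 and for the highest of each role, and other pathway genes past adjusted p 0.05.

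limma 3.58.1 (R 4.3.3, with a trend) was run on log2(FPKM + 1) keeping genes whose mean reached 1 FPKM in at least 1 group, with Benjamini-Hochberg adjustment, after tests on simulated data. Python 3.11.15, numpy 2.4.6, pandas 2.3.3 and matplotlib 3.10.9 did the rest. The replicate number was used as a pairing, although the labels do not say that same-numbered libraries belong together. Same-numbered libraries deviated together from their group means (correlations 0.445, 0.126 and 0.171). Beyond pair 1 the match was no closer than across numbers, as shNC-2 with shACAT2-3 gave 0.198 and shNC-3 with shACAT2-2 gave 0.141. Calls made with the block rest on this assumed pairing. The libraries shNC-2 and shNC-3 had a chi-square per gene of 1.77, against 14.2 to 54.7 for other pairs within a group, and were kept as 2 samples. GC content was that of the longest transcript, and a lowess curve (span 0.3) was removed per library. Alternatives were another pseudocount, filters, scalings, the replicate block, limma-voom, libraries left out or averaged and, added after seeing the data, the GC correction and the block without each pair. A gene of the pathway lists is not reported here by name.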

Additional observations from a re-analysis of the deposited data

How the results depend on the processing

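The count of 0 genes of the set past an adjusted p of 0.05 became 4 with the replicate block, 5 with the GC correction, 7 with both, 7 with the block without pair 3, where 1987 of 13854 genes, 14.3%, were called, and 7 at an unadjusted p below 0.05; the block changed no other call of the set. By limma, the block without pair 1 or without pair 2 called 0 genes of all those tested, with 3363 and 2615 at an unadjusted p below 0.05, 5 and 4 of them in the set. In the further pathway genes the count of 1 became 14 with the block, 0 without pair 1, 0 without pair 2 and 15 without pair 3 in that fit. It was 14 with the GC correction and 22 with both. For the block, the correction and both, these were 14.6%, 14.6% and 22.9% of the 96 genes, beside 12.5%, 17.1% and 21.1% of all genes. The count was 3 with library-size scaling and 2 with upper-quartile scaling, where 884 and 801 of 13832 genes were called. With no filter it was 0, as when shNC-2 was averaged with shNC-3, and it lay between 0 and 1 with each library left out. The median of the set stayed positive in all 19 alternatives, from 0.09 without shACAT2-1 to 0.26 without shNC-1, and was 0.15 and 0.14 under the scalings, where that of all genes was −0.03. Of the 33 genes, 22 kept their sign in every alternative. PRDX2 turned to −0.051 and −0.057 with the scalings by library size and upper quartile, to −0.048 when shNC-2 was averaged with shNC-3, and to −0.0027 with the GC correction, with and without the block. In the block without pair 1 it was −0.06, without pair 2 −0.024, and it lay between −0.159 and 0.136 with a library left out. In the block without pair 3, GPX1 was 0.197, GSS 0.0499, KEAP1 0.034 and SRXN1 0.087, and without pair 1, PRDX5 was −0.069 and TXNRD2 −0.039. With a library left out, values ran from −0.3228 to 0.2302 for GPX1, from −0.0075 to 0.391 for GPX4, from −0.036 to 0.156 for GPX8, from −0.226 to 0.069 for GSS, from −0.357 to 0.037 for GSTP1 and from −0.299 to 0.068 for KEAP1. They ran from −0.131 to 0.628 for PRDX5, from −0.4987 to 0.103 for SRXN1, from −0.0087 to 0.297 for TFRC and from −0.083 to 0.3425 for TXNRD2. Beyond what these constructions show, the cause was not tested. A spread as wide as that of PRDX5, GPX1 or SRXN1 limits what 3 libraries can show.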
